A study of Mus musculus with 6 samples.

Results

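Crosslinking of polypyrimidine tract binding proteins to RNA of 3 neuronal adhesion genes, Ncam1, Ncam2 and Cadm2, was described in 6 CLIP-seq interval lists from mouse cortex. The members were the distinct intervals (each chromosome, start, end and strand counted once) whose midpoint lay on the gene's strand in 1 of 3 stretches of the mm9 genome: chromosome 9 from 49.31 to 49.61 Mb on the minus strand (Ncam1), chromosome 16 from 81.2 to 81.63 Mb on the plus strand (Ncam2), and chromosome 16 from 66.66 to 67.62 Mb on the minus strand (Cadm2). Of 940882 distinct intervals in the series, 12884 were members: 4927 in Ncam1, 1323 in Ncam2 and 6634 in Cadm2. The loci were chosen because they were rich in intervals, and Ncam1 also because it kept sites in a library whose chromosome 9 was nearly empty. Their interval counts are therefore a description, and no test rests on them.

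Every library came from nuclear fractions of cerebral cortex of BL6/129Sv mice at postnatal day 1. FLAG antibody was used on cortex of the genotype Rosa-PTBP1; PTBP2 loxp/loxp; Emx1-Cre (called FLAG loxp here, 1 library), on Rosa-PTBP1; Emx1-cre cortex (FLAG Rosa-PTBP1, 1 library) and on WT cortex (FLAG WT, 2 libraries). PTBP2 antibody was used on Rosa-PTBP1; Emx1-cre cortex (PTBP2 Rosa-PTBP1, 1 library) and on WT cortex (PTBP2 WT, 1 library). FLAG-tagged PTBP1 comes from Rosa-PTBP1, and Emx1-cre drives recombination in the lineage of the dorsal forebrain. Both Rosa-PTBP1 genotypes thus differ from WT by the transgene and the recombinase together, and cells outside that lineage are not recombined. FLAG loxp differs from WT also by its floxed PTBP2 loxp/loxp alleles. Recombination of these alleles in the Emx1-Cre lineage, and the loss of PTBP2 with it, was not measured in these lists. WT cortex holds no FLAG-tagged protein, so FLAG WT is the background of the antibody and procedure. Apart from FLAG WT each group was 1 library, and the labels do not say whether libraries came from 1 animal, pooled animals or separate litters. The lists hold no expression values, so the tissue label was not checked against markers.

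PTBP1 and its paralogue PTBP2 bind RNA at pyrimidine tracts and control the splicing of many transcripts. PTBP1 is found in neural progenitors and non-neuronal cells, and PTBP2 replaces it as neurons form. Ncam1 and Ncam2 encode neural cell adhesion molecules of the immunoglobulin superfamily, which bind between neighbouring cells and act in neurite growth and in axon bundling. Ncam1 is known for isoforms made by alternative splicing, with membrane-spanning and lipid-anchored forms, and Ncam2 is known for its role in sorting olfactory axons. Cadm2 (also called SynCAM 2) encodes a synaptic adhesion molecule of the same superfamily that is found on axons.

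Both FLAG libraries of Rosa-PTBP1 genotypes gave the deepest lists of distinct intervals, and FLAG WT replicate 2 gave the thinnest. FLAG WT replicate 1 had the most listed lines, repeats included, at 376546. It held 4.26 lines per distinct interval, against 1.06 to 1.62 in the other libraries, so collapsing repeats cut it most. The libraries held 265953 distinct intervals in FLAG loxp, 351602 in FLAG Rosa-PTBP1, 74416 in PTBP2 Rosa-PTBP1, 155447 in PTBP2 WT, and 88327 and 26665 in FLAG WT replicates 1 and 2. Same-strand intervals that overlapped or touched each other were joined into sites, and single-interval sites made up 15.1% to 46.2% of sites in the 4 libraries of FLAG-PTBP1 or PTBP2, against 85.7% in FLAG WT replicate 1 and 41.8% in FLAG WT replicate 2. Some chromosomes were thinly covered in 1 library, and such a chromosome is called sparse where it held under 0.5 times the share of sites that it held, by the median, elsewhere. PTBP2 Rosa-PTBP1 had 7 sparse chromosomes (4, 5, 6, 7, 8, 9 and X), FLAG Rosa-PTBP1 had 1 (chromosome 10), and 12 of 20 chromosomes were filled in every library. Chromosome 9, which holds Ncam1, was thus sparse in PTBP2 Rosa-PTBP1, and chromosome 16, which holds Ncam2 and Cadm2, was filled in all 6. By the run names in the read names, FLAG loxp, FLAG Rosa-PTBP1 and FLAG WT replicate 2 came from 1 run, and both PTBP2 libraries and FLAG WT replicate 1 came from 2 others, so FLAG-PTBP1 and PTBP2 libraries share no run, and the protein and the run cannot be told apart between them.

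Intervals in the 3 loci lay on the annotated strand of each gene and stopped at the edges. On the opposite strand 0 intervals were found in any locus in any library. The 500 kb on each side of Ncam1 held 1 interval on its strand over all 6 libraries, against 5059 inside, where an interval found in several libraries counts once for each. For Ncam2 the same flanks held 0 intervals against 1349 inside. For Cadm2 they held 13 intervals against 6721 inside. The FLAG WT background libraries had the same limits, so strand and edges do not set binding apart from background. Whether the calling of significant clusters was confined to annotated genes is not known. No mm9 gene model was used, so intervals were not assigned to exons, introns or untranslated regions, and reads of shorter genes inside a locus on the same strand were not separated. In the GRCm38 annotation, used here for names only, Ncam2 is overlapped on its strand by 7120432I05Rik and Gm49555, and Cadm2 by the processed pseudogenes Gm49640 and Gm15828.

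Ncam1, the gene of the neural cell adhesion molecule found across the nervous system, took its largest share of intervals in PTBP2 WT. It held 1448 distinct intervals in FLAG loxp, 1684 in FLAG Rosa-PTBP1, 472 in PTBP2 Rosa-PTBP1, 1324 in PTBP2 WT, and 121 and 10 in FLAG WT replicates 1 and 2. As a share of the library this was 0.544% in FLAG loxp (exact 95% interval 0.517 to 0.573), 0.479% in FLAG Rosa-PTBP1 (0.456 to 0.502), 0.634% in PTBP2 Rosa-PTBP1 (0.578 to 0.694), 0.852% in PTBP2 WT (0.807 to 0.899), and 0.137% (0.114 to 0.164) and 0.0375% (0.0180 to 0.0690) in FLAG WT replicates 1 and 2. The 4 libraries of FLAG-PTBP1 or PTBP2 all lay above both FLAG WT libraries. In PTBP2 Rosa-PTBP1 the total is small on the 7 sparse chromosomes, and over the chromosomes filled in both its interval share of Ncam1 was close to that of FLAG Rosa-PTBP1, with FLAG Rosa-PTBP1 at 0.986 times PTBP2 Rosa-PTBP1. All intervals of this kind, here and below, are Clopper-Pearson or conditional binomial intervals and cover counting error only. Intervals of 1 site are not independent molecules, and more RNA of a gene, more cells making it and more protein bound per RNA cannot be told apart in such counts.

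Ncam2, the paralogue known from olfactory axons, was the most thinly covered of the genes. It held 357 intervals in FLAG loxp, 573 in FLAG Rosa-PTBP1, 94 in PTBP2 Rosa-PTBP1, 209 in PTBP2 WT, and 103 and 13 in FLAG WT replicates 1 and 2. Its share of the library was 0.134% in FLAG loxp, 0.163% in FLAG Rosa-PTBP1, 0.126% in PTBP2 Rosa-PTBP1, 0.134% in PTBP2 WT, and 0.117% and 0.0488% in FLAG WT replicates 1 and 2. The share in FLAG WT replicate 1 had a 95% interval of 0.0952% to 0.141%, which holds the shares of FLAG loxp, PTBP2 Rosa-PTBP1 and PTBP2 WT.

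Cadm2, the synaptic adhesion gene, held the most intervals in 5 of the 6 libraries. It held 1683 intervals in FLAG loxp, 2841 in FLAG Rosa-PTBP1, 611 in PTBP2 Rosa-PTBP1, 1020 in PTBP2 WT, and 476 and 90 in FLAG WT replicates 1 and 2. Its share was 0.633% in FLAG loxp, 0.808% in FLAG Rosa-PTBP1, 0.821% in PTBP2 Rosa-PTBP1, 0.656% in PTBP2 WT, and 0.539% and 0.338% in FLAG WT replicates 1 and 2. PTBP2 WT was the exception, with 0.770 Cadm2 intervals for each Ncam1 interval, where the ratio was 1.16 in FLAG loxp, 1.69 in FLAG Rosa-PTBP1, 1.29 in PTBP2 Rosa-PTBP1, and 3.93 and 9 in FLAG WT replicates 1 and 2. Per length the order of the genes changed. Ncam1 had 48.3 intervals per 10 kb of locus in FLAG loxp, 56.1 in FLAG Rosa-PTBP1, 15.7 in PTBP2 Rosa-PTBP1 and 44.1 in PTBP2 WT. Cadm2 had 17.5, 29.6, 6.36 and 10.6 intervals per 10 kb in the same 4 libraries, and Ncam2 had 8.30, 13.3, 2.19 and 4.86. Ncam1 was thus the most densely covered gene in each of the 4, while Cadm2 was the longest locus, at 960 kb against 430 kb for Ncam2 and 300 kb for Ncam1. In FLAG WT replicate 1 the densities lay closer together, at 4.03 intervals per 10 kb in Ncam1, 2.40 in Ncam2 and 4.96 in Cadm2.

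**Figure D1:**
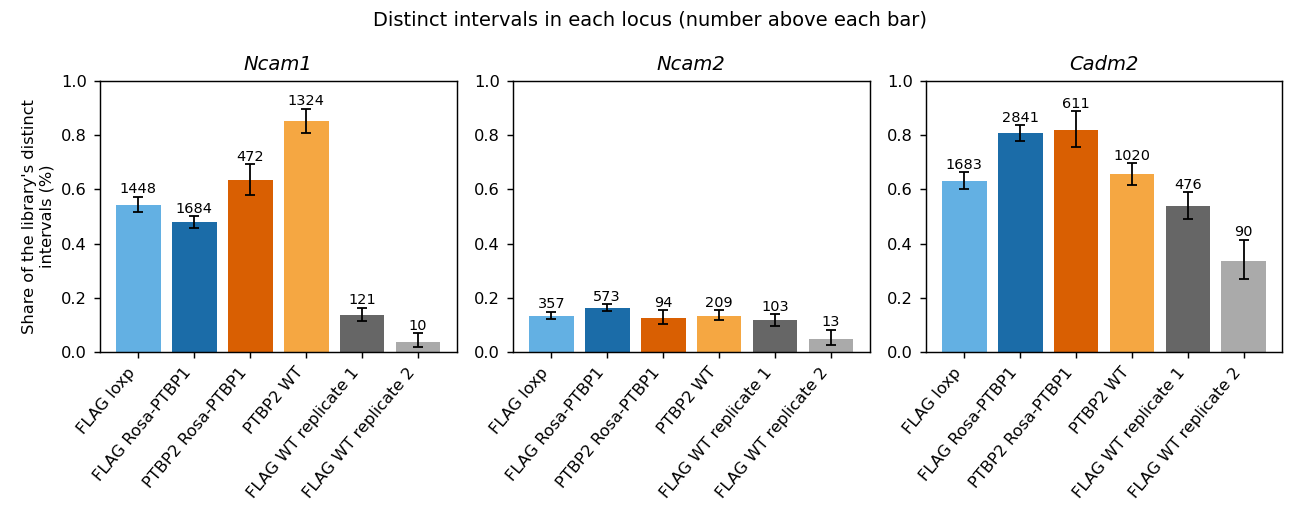
Share of each library's distinct intervals (%, linear axis) in each of the 3 loci. Bars are single libraries, error bars are exact 95% intervals for counting error, and the number of intervals stands above each bar. Ncam1 was highest in PTBP2 WT at 0.852%, while Ncam2 lay between 0.0488% and 0.163% in all 6 libraries.

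Pileup of intervals into sites differed between libraries, most in Ncam1. Ncam1 held 96 sites in FLAG loxp, 125 in FLAG Rosa-PTBP1, 57 in PTBP2 Rosa-PTBP1, 108 in PTBP2 WT, and 94 and 4 in FLAG WT replicates 1 and 2. Of these, 66, 93, 31 and 68 were stacked, meaning built from 5 or more distinct intervals, in FLAG loxp, FLAG Rosa-PTBP1, PTBP2 Rosa-PTBP1 and PTBP2 WT, against 0 and 1 in FLAG WT replicates 1 and 2. A similar number of Ncam1 sites in PTBP2 WT and FLAG WT replicate 1 was thus made of different numbers of intervals, 12.3 per site in PTBP2 WT and 1.29 per site in FLAG WT replicate 1.

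Ncam2 held 37 sites in FLAG loxp, 71 in FLAG Rosa-PTBP1, 22 in PTBP2 Rosa-PTBP1, 26 in PTBP2 WT, and 70 and 5 in FLAG WT replicates 1 and 2. Stacked sites of Ncam2 numbered 25, 43, 6 and 11 in the 4 libraries of FLAG-PTBP1 or PTBP2, in the same order, and 1 in each FLAG WT library. Cadm2 held 221 sites in FLAG loxp, 321 in FLAG Rosa-PTBP1, 158 in PTBP2 Rosa-PTBP1, 183 in PTBP2 WT, and 371 and 23 in FLAG WT replicates 1 and 2. Its stacked sites numbered 128, 198, 31 and 94 in the 4 libraries, against 5 and 9 in FLAG WT replicates 1 and 2. FLAG WT replicate 1 thus had more Cadm2 sites than any other library and the fewest stacked ones, while in FLAG WT replicate 2 a Cadm2 site held 3.91 intervals, close to the 3.87 of PTBP2 Rosa-PTBP1.

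Within each gene the intervals gathered near the 5′ end. The first 100 kb of Ncam1 held 94.5% of its intervals in FLAG loxp, 92.4% in FLAG Rosa-PTBP1, 97.0% in PTBP2 Rosa-PTBP1 and 96.8% in PTBP2 WT, against 41.3% in FLAG WT replicate 1 (50 of 121) and 10% in FLAG WT replicate 2 (1 of 10). In Ncam2 the first 143.3 kb, the same fraction of that locus, held 93.8% in FLAG loxp, 92.8% in FLAG Rosa-PTBP1, 72.3% in PTBP2 Rosa-PTBP1 and 92.8% in PTBP2 WT, against 60.2% and 84.6% in FLAG WT replicates 1 and 2. In Cadm2 the first 320 kb held 81.6% in FLAG loxp, 79.4% in FLAG Rosa-PTBP1, 62.0% in PTBP2 Rosa-PTBP1 and 65.0% in PTBP2 WT, against 52.1% in FLAG WT replicate 1 and 98.9% in FLAG WT replicate 2 (89 of 90). Cadm2 was the gene with the widest spread, and its 2 FLAG libraries from Rosa-PTBP1 genotypes were more 5′-weighted than its 2 PTBP2 libraries. The same order held for sites, each counted once, with 71.5% in FLAG loxp and 71.7% in FLAG Rosa-PTBP1, against 65.2% in PTBP2 Rosa-PTBP1 and 67.2% in PTBP2 WT, but the 95% intervals of these 4 shares overlapped.

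**Figure D2:**
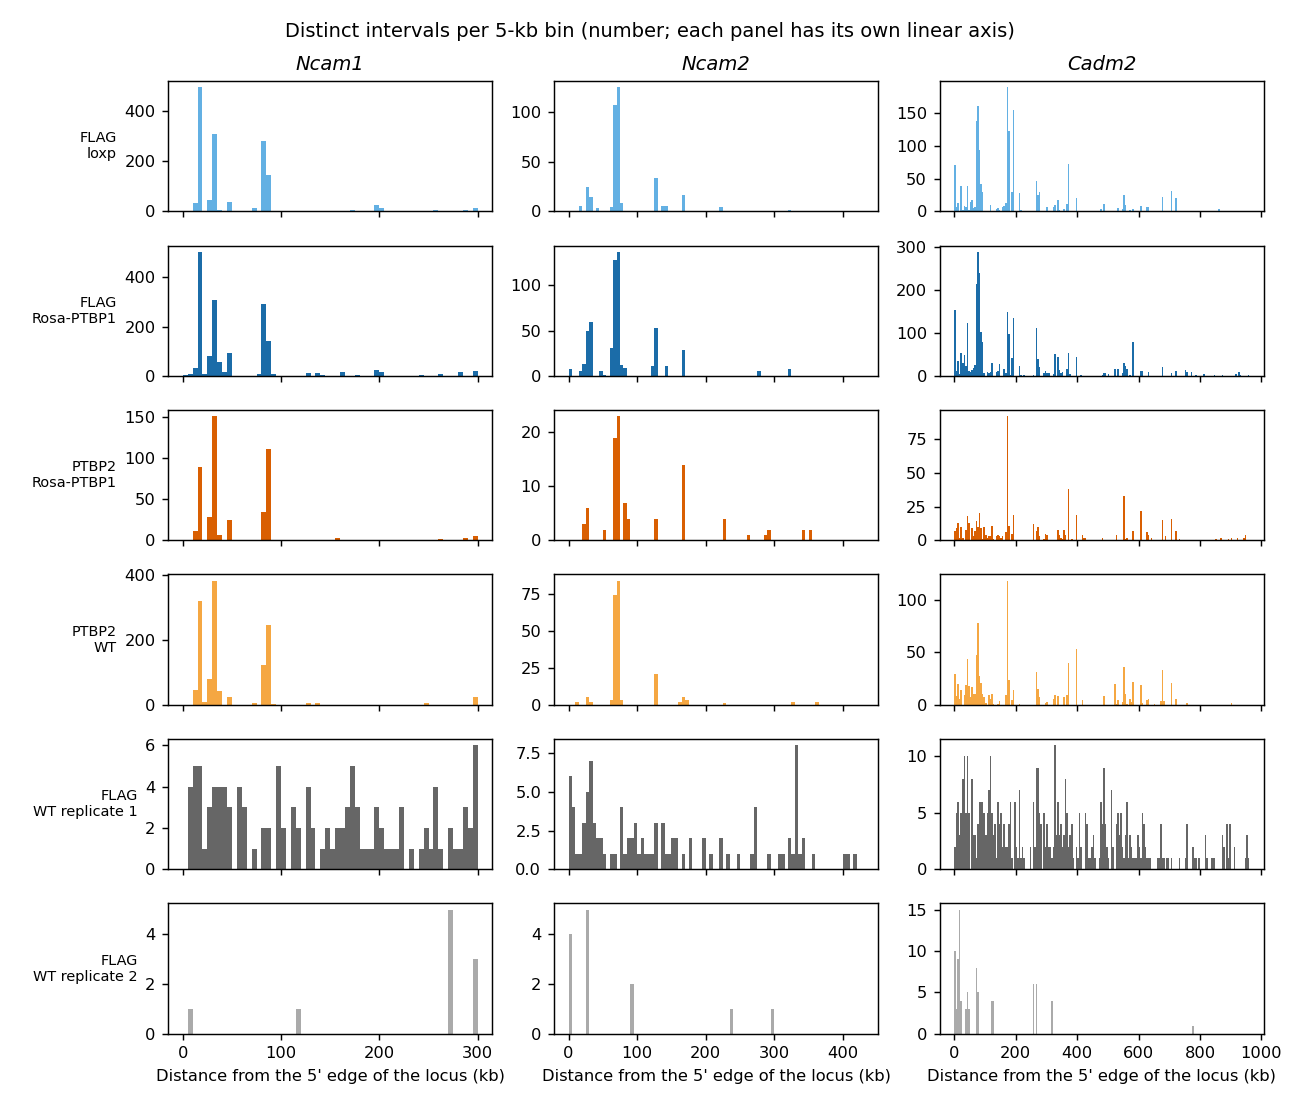
Distinct intervals per 5-kb bin (number, each panel with its own linear axis) along each locus, by distance in kb from the 5′ edge, with 1 row for each library. The 4 libraries of FLAG-PTBP1 or PTBP2 have their main peaks near the same places in Ncam1 and Ncam2, while FLAG WT replicate 1 is spread along each gene with few intervals in any bin.

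A few kilobases carried most of Ncam1. Regions were built by merging intervals of all 6 libraries, and those with 30 or more intervals were joined into clusters when they lay within 3 kb of each other. Ncam1 had 4 such clusters covering 15697 bases, 5.23% of the locus, and they held 89.6% of its intervals in FLAG loxp, 84.0% in FLAG Rosa-PTBP1, 93.9% in PTBP2 Rosa-PTBP1 and 87.9% in PTBP2 WT, against 14.0% in FLAG WT replicate 1 and 0 of 10 intervals in FLAG WT replicate 2. Because regions were chosen by their totals, to which the deeper libraries give most, these shares are a description. The cluster at chr9:49590136-49595472, whose middle lay 17.2 kb from the 5′ edge, held 36.5% of Ncam1 in FLAG loxp and 31.7% in FLAG Rosa-PTBP1, against 21.2% in PTBP2 Rosa-PTBP1 and 26.4% in PTBP2 WT. The cluster at chr9:49574621-49580638, at 32.4 kb, was the other way round, with 22.9% in FLAG loxp and 21.9% in FLAG Rosa-PTBP1, against 36.4% in PTBP2 Rosa-PTBP1 and 34.3% in PTBP2 WT. The cluster at chr9:49523660-49527458, at 84.4 kb, held 28.9% in FLAG loxp, 25.6% in FLAG Rosa-PTBP1, 30.9% in PTBP2 Rosa-PTBP1 and 25.5% in PTBP2 WT.

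Inside the cluster at 84.4 kb, neighbouring regions leaned toward different antibodies. The region chr9:49525476-49526495 held 182 intervals in FLAG loxp and 201 in FLAG Rosa-PTBP1, and 17 in PTBP2 Rosa-PTBP1 and 51 in PTBP2 WT. Per 1000 intervals of each library in Ncam1 this was 126 in FLAG loxp and 119 in FLAG Rosa-PTBP1, against 36.0 in PTBP2 Rosa-PTBP1 and 38.5 in PTBP2 WT. The region chr9:49523660-49524179, a neighbour in the 3′ direction along the gene, held 102 intervals in FLAG loxp, 100 in FLAG Rosa-PTBP1, 97 in PTBP2 Rosa-PTBP1 and 135 in PTBP2 WT. Per 1000 this was 70.4 in FLAG loxp and 59.4 in FLAG Rosa-PTBP1, against 205 in PTBP2 Rosa-PTBP1 and 102 in PTBP2 WT. The first region was thus higher in both FLAG libraries and the second in both PTBP2 libraries, with 0 or 1 interval in FLAG WT. These were picked extremes: in FLAG Rosa-PTBP1 over PTBP2 Rosa-PTBP1 the first had the highest and the second the lowest ratio of 15 Ncam1 regions. By sequencing run, the first region had 27.1 and 46.7 per 1000 in the 2 runs of PTBP2 Rosa-PTBP1. It had 35.4 and 39.8 in those of PTBP2 WT. The second had 190 and 224 per 1000 of PTBP2 Rosa-PTBP1, against 104 and 101 per 1000 of PTBP2 WT. The runs are parts of the counts by which the regions were picked, so they only describe the difference. No run held both antibodies with the transgene, so the part of the run in the difference between antibodies was not tested.

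The other leading regions of Ncam1 were shared by all 4 libraries. The region chr9:49578431-49579330, at 31.1 kb, held 175 intervals in FLAG loxp, 158 in FLAG Rosa-PTBP1, 85 in PTBP2 Rosa-PTBP1, 185 in PTBP2 WT, and 2 and 0 in FLAG WT replicates 1 and 2. The region chr9:49591049-49592004, at 18.5 kb, held 220 in FLAG loxp, 225 in FLAG Rosa-PTBP1, 35 in PTBP2 Rosa-PTBP1, 126 in PTBP2 WT, and 2 and 0 in FLAG WT replicates 1 and 2. In the region at 31.1 kb the deepest base of each of the 4 libraries fell within 96 bases of the others, with 15 to 23 intervals covering it. Deepest bases in the regions at 18.5, 86.1 and 84.0 kb were up to 537, 288 and 401 bases apart.

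Smaller Ncam1 regions differed between single libraries of different genotypes. The region chr9:49561286-49561553, at 48.6 kb, held 4 intervals in FLAG loxp and 40 in FLAG Rosa-PTBP1, or 2.76 against 23.8 per 1000 of the locus, and 13 in PTBP2 Rosa-PTBP1 and 15 in PTBP2 WT. The region chr9:49524491-49524749 held 2 intervals in FLAG loxp, 18 in FLAG Rosa-PTBP1, 7 in PTBP2 Rosa-PTBP1 and 50 in PTBP2 WT, the lowest ratio of FLAG loxp to PTBP2 WT among the 17 Ncam1 regions compared. In the other direction chr9:49592086-49592391 held 58 intervals in FLAG loxp and 31 in FLAG Rosa-PTBP1, or 40.1 against 18.4 per 1000. Each is 1 of many regions compared between single libraries, with no spread between replicates behind it.

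Chromosome 9 was nearly empty around Ncam1 in PTBP2 Rosa-PTBP1. Ncam1 made up 472 of 769 intervals on that chromosome in PTBP2 Rosa-PTBP1, or 61.4% (57.8 to 64.8), against 1324 of 9963 in PTBP2 WT, or 13.3% (12.6 to 14.0). The rest of the chromosome held 297 intervals in PTBP2 Rosa-PTBP1 and 8639 in PTBP2 WT. In FLAG loxp and FLAG Rosa-PTBP1, where the chromosome was filled, Ncam1 made up 6.77% and 5.78% of its intervals. On the 7 sparse chromosomes 99 windows of 100 kb on 1 strand held 100 or more intervals in PTBP2 WT, of which 81 held 0 in PTBP2 Rosa-PTBP1 and 9 held 50 or more. The Ncam1 window from 49.5 to 49.6 Mb, with 458 intervals in PTBP2 Rosa-PTBP1 against 1281 in PTBP2 WT, was 1 of these 9 and the only 1 on chromosome 9. The windows were thus mostly either empty or well filled, and Ncam1 was among the few that were filled. As Ncam1 was chosen because it kept sites on this chromosome, its share and its place among the filled windows were set by that choice. They are a description. The other 2 Ncam1 windows also kept intervals, 3 in PTBP2 Rosa-PTBP1 against 12 in PTBP2 WT from 49.4 to 49.5 Mb, and 11 against 31 from 49.3 to 49.4 Mb. Both sequencing runs of PTBP2 Rosa-PTBP1 held Ncam1, at 0.568% and 0.738% of the run, against 0.837% and 0.858% in the same runs of PTBP2 WT. How the sparse chromosomes arose was not tested, and a locus listed at 0 intervals may still have held reads that did not pass the authors' threshold.

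Ncam2 was concentrated in a single cluster. Its 2 clusters covered 0.68% of the locus, and the larger, chr16:81268113-81270768 at 69.4 kb from the 5′ edge, held 231 intervals in FLAG loxp, 250 in FLAG Rosa-PTBP1, 42 in PTBP2 Rosa-PTBP1, 158 in PTBP2 WT, and 1 and 0 in FLAG WT replicates 1 and 2. That was 64.7% of the gene's intervals in FLAG loxp, 43.6% in FLAG Rosa-PTBP1, 44.7% in PTBP2 Rosa-PTBP1 and 75.6% in PTBP2 WT. PTBP2 WT and FLAG loxp thus had larger shares than the 2 libraries of the Rosa-PTBP1; Emx1-cre genotype. The leading region, chr16:81269952-81270350, held 60 intervals in FLAG loxp, 80 in FLAG Rosa-PTBP1, 18 in PTBP2 Rosa-PTBP1, 54 in PTBP2 WT and 0 in both FLAG WT libraries. Beside it, chr16:81270357-81270768 held 70 in FLAG loxp, 54 in FLAG Rosa-PTBP1, 5 in PTBP2 Rosa-PTBP1, 32 in PTBP2 WT and 0 in both FLAG WT libraries. Its deepest base was at nearly the same place in the 3 libraries with 10 or more intervals there, within 5 bases.

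Other Ncam2 regions were smaller. At chr16:81326435-81326700, 126.6 kb from the 5′ edge, there were 33 intervals in FLAG loxp, 46 in FLAG Rosa-PTBP1, 4 in PTBP2 Rosa-PTBP1, 21 in PTBP2 WT, and 3 and 0 in FLAG WT replicates 1 and 2, again with deepest bases within 5 bases of each other in 3 libraries. At chr16:81268698-81268851 there were 29 in FLAG loxp, 25 in FLAG Rosa-PTBP1, 13 in PTBP2 Rosa-PTBP1 and 9 in PTBP2 WT, which per 1000 of the locus was 81.2, 43.6, 138 and 43.1 in that order. At chr16:81268113-81268249 there were 6 in FLAG loxp, 31 in FLAG Rosa-PTBP1, 0 in PTBP2 Rosa-PTBP1 and 22 in PTBP2 WT. With 94 Ncam2 intervals in all, PTBP2 Rosa-PTBP1 was too shallow to rank these regions. The regions with most intervals in the background libraries lay elsewhere: chr16:81531753-81531832 held 7 in FLAG WT replicate 1, and chr16:81227405-81227472 held 4 and 5 in FLAG WT replicates 1 and 2, and both held 0 in each of the other 4 libraries.

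Cadm2 was spread over more and smaller regions. Its 14 clusters covered 17493 bases, 1.82% of the locus, and held 63.2% of its intervals in FLAG loxp, 51.9% in FLAG Rosa-PTBP1, 43.9% in PTBP2 Rosa-PTBP1 and 46.7% in PTBP2 WT, against 4.20% and 32.2% in FLAG WT replicates 1 and 2. The leading region, chr16:67444625-67445800 at 174.8 kb from the 5′ edge, held 239 intervals in FLAG loxp, 201 in FLAG Rosa-PTBP1, 97 in PTBP2 Rosa-PTBP1, 133 in PTBP2 WT, and 2 and 0 in FLAG WT replicates 1 and 2. Per 1000 of the locus this was 142 in FLAG loxp, 70.7 in FLAG Rosa-PTBP1, 159 in PTBP2 Rosa-PTBP1 and 130 in PTBP2 WT, so FLAG Rosa-PTBP1 was the low one. The deepest base was the same to within 1 base in FLAG loxp, FLAG Rosa-PTBP1 and PTBP2 WT, with 26, 23 and 25 intervals covering it, and PTBP2 Rosa-PTBP1 had its own 101 bases away.

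Neighbouring clusters of Cadm2 at 76.5 and 84.6 kb held more of the gene in both FLAG libraries. The first, chr16:67540651-67546250, held 16.3% of the gene's intervals in FLAG loxp and 16.3% in FLAG Rosa-PTBP1, against 3.93% in PTBP2 Rosa-PTBP1 and 11.4% in PTBP2 WT, and it also held 13 of 90 intervals in FLAG WT replicate 2. Its main region, chr16:67545450-67546250, held 115 intervals in FLAG loxp, 170 in FLAG Rosa-PTBP1, 14 in PTBP2 Rosa-PTBP1, 27 in PTBP2 WT, and 0 and 8 in FLAG WT replicates 1 and 2. That is the leading region of FLAG WT replicate 2, which came from the same run as FLAG loxp and FLAG Rosa-PTBP1, and the part of the run in those counts was not tested. The cluster chr16:67533962-67536884, at 84.6 kb, held 7.13% in FLAG loxp and 9.71% in FLAG Rosa-PTBP1, against 2.62% in PTBP2 Rosa-PTBP1 and 2.16% in PTBP2 WT. The cluster at 42.8 kb did not lean so, with 2.26% in FLAG loxp and 2.99% in FLAG Rosa-PTBP1, against 2.45% in PTBP2 Rosa-PTBP1 and 2.84% in PTBP2 WT. Inside the cluster at 84.6 kb chr16:67536481-67536884 held 27 intervals in FLAG loxp, 84 in FLAG Rosa-PTBP1, 0 in PTBP2 Rosa-PTBP1, 1 in PTBP2 WT and 0 in both FLAG WT libraries.

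Other Cadm2 regions also differed between libraries. At chr16:67429186-67429606 there were 61 intervals in FLAG loxp, 47 in FLAG Rosa-PTBP1, 10 in PTBP2 Rosa-PTBP1 and 0 in PTBP2 WT, but per 1000 of the locus the region was nearly equal with both antibodies in the shared genotype, at 16.5 in FLAG Rosa-PTBP1 and 16.4 in PTBP2 Rosa-PTBP1. At chr16:67444354-67444615, next to the leading region, there were 31 in FLAG loxp, 35 in FLAG Rosa-PTBP1 and 0 in both PTBP2 libraries. Farther into the gene the order turned. At chr16:67065415-67065556, 554.5 kb from the 5′ edge, there were 25 in FLAG loxp, 30 in FLAG Rosa-PTBP1, 33 in PTBP2 Rosa-PTBP1, 36 in PTBP2 WT and 0 in both FLAG WT libraries. Per 1000 of the locus this was 14.9 in FLAG loxp and 10.6 in FLAG Rosa-PTBP1, against 54.0 in PTBP2 Rosa-PTBP1 and 35.3 in PTBP2 WT, and the deepest bases of the 4 libraries fell within 6 bases. At chr16:67248106-67248396, 371.7 kb in, there were 42 in FLAG loxp, 45 in FLAG Rosa-PTBP1, 25 in PTBP2 Rosa-PTBP1 and 40 in PTBP2 WT, or 25 and 15.8 per 1000 in the FLAG libraries against 40.9 and 39.2 in the PTBP2 libraries. These 142 and 291 bases were thus compact peaks found in every library of FLAG-PTBP1 or PTBP2, with the larger share of the gene's intervals in both PTBP2 libraries.

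**Figure D3:**
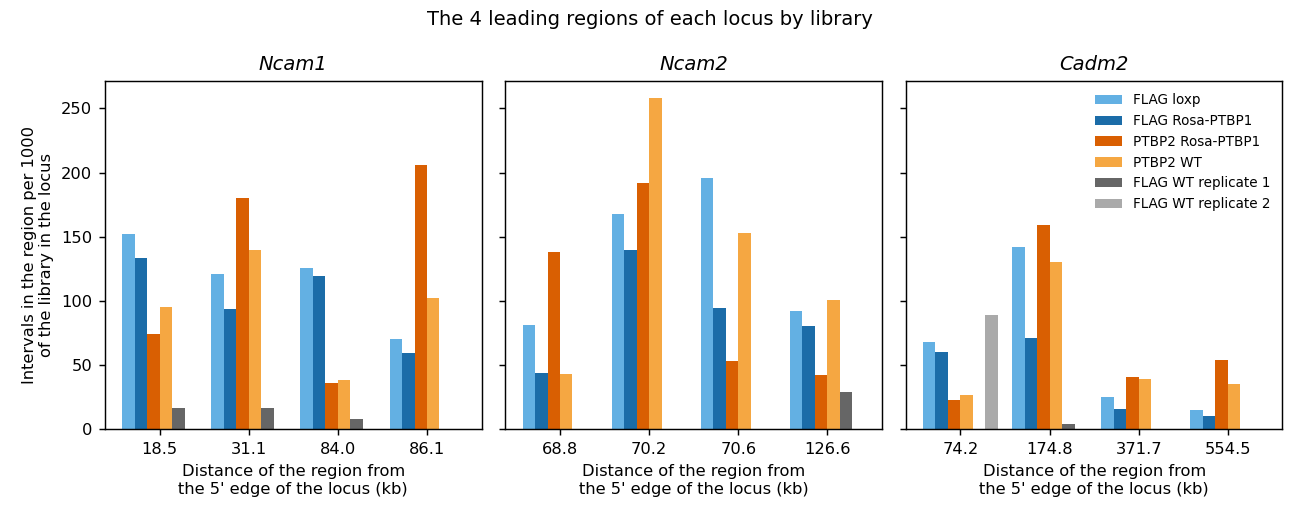
Intervals in each of the 4 leading regions of a locus, per 1000 of the library's intervals in that locus (linear axis), ordered by distance in kb from the 5′ edge. Bars are single libraries without replicates. In Ncam1 the regions at 84.0 and 86.1 kb lean to opposite antibodies, and in Cadm2 the regions at 371.7 and 554.5 kb have higher bars in both PTBP2 libraries.

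Near the very 5′ edge of Cadm2 the FLAG loxp and FLAG Rosa-PTBP1 libraries differed at single regions. At chr16:67617868-67618156 there were 5 intervals in FLAG loxp against 37 in FLAG Rosa-PTBP1. About 1 kb away, chr16:67616685-67616904 held 23 in FLAG loxp against 9 in FLAG Rosa-PTBP1. These regions had the lowest and the highest ratio of the 25 Cadm2 regions compared. Each genotype was a single library, with no spread between replicates behind the difference. Their neighbourhood, the cluster chr16:67616685-67619831, held nearly the same share of the gene in both, 4.22% in FLAG loxp and 4.47% in FLAG Rosa-PTBP1. Between the PTBP2 libraries chr16:67542814-67543196 differed most downward of only 5 Cadm2 regions compared, with 3 intervals in PTBP2 Rosa-PTBP1 against 28 in PTBP2 WT. A region with intervals in most libraries including the background was chr16:67350462-67350818, with 28 in FLAG loxp, 59 in FLAG Rosa-PTBP1, 7 in PTBP2 Rosa-PTBP1, 14 in PTBP2 WT, and 5 and 6 in FLAG WT replicates 1 and 2.

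**Figure D4:**
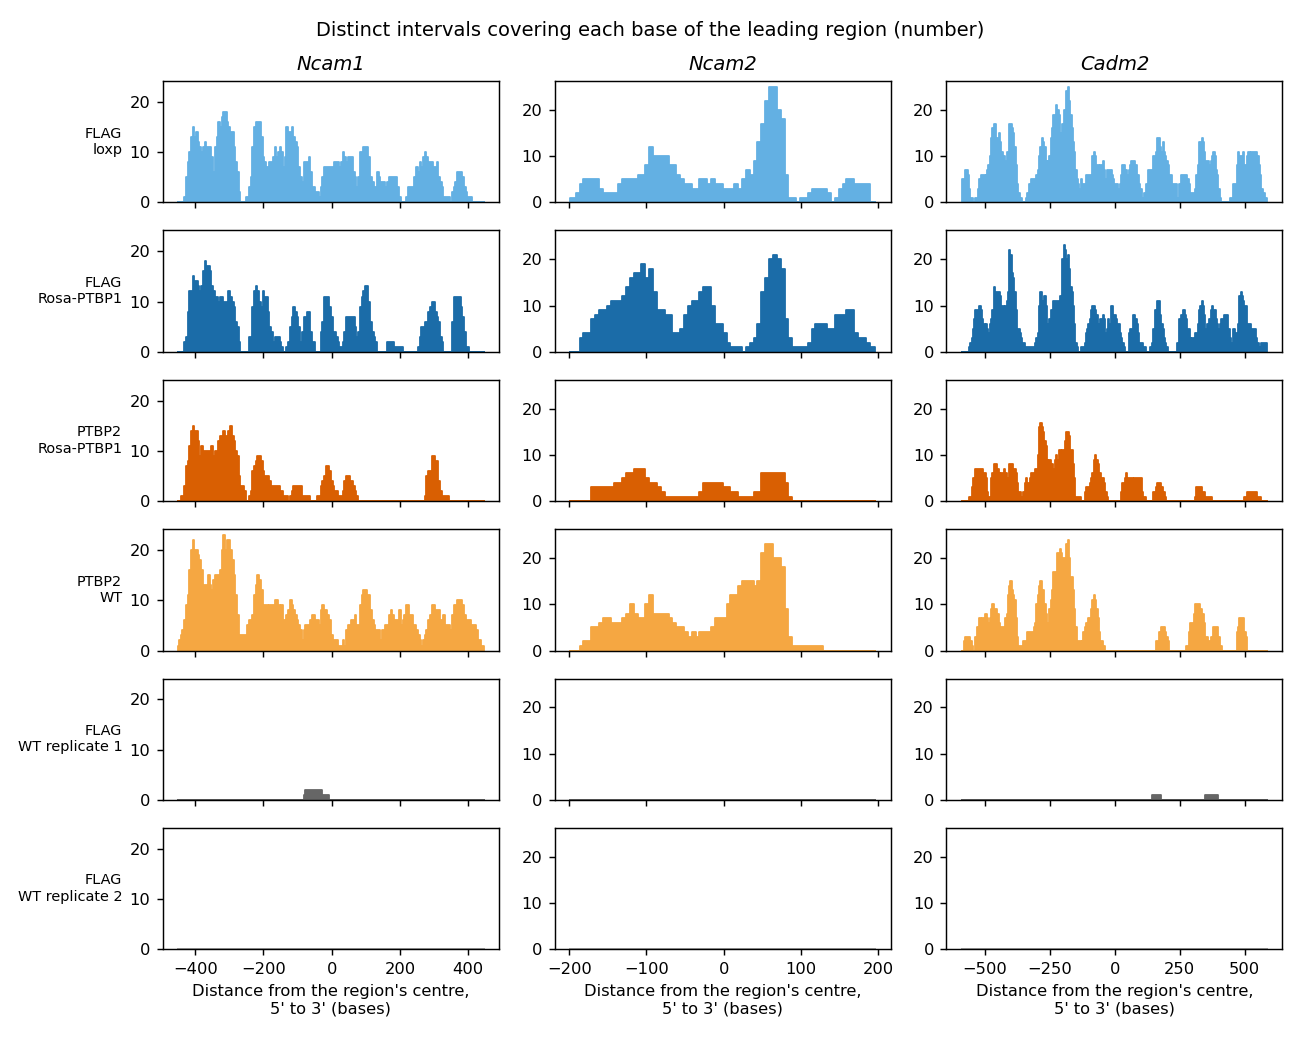
Number of distinct intervals covering each base (linear axis, the same for all libraries of a gene) across the leading region of each gene, by distance in bases from the region's centre, 5′ to 3′. Each row is a library. Deepest bases of the 4 upper rows lie within 96 bases in Ncam1, 101 in Cadm2 and 176 in Ncam2. In Ncam2 the deepest base is at 64 in FLAG loxp, 67 in FLAG Rosa-PTBP1 and 56 in PTBP2 WT, but at -109 in PTBP2 Rosa-PTBP1. That is another peak, 7 intervals deep, and PTBP2 Rosa-PTBP1 has 6 intervals at 61. The FLAG WT rows hold at most 2 intervals in the whole region.

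Exact intervals were rarely shared between libraries. Of the 12884 distinct intervals 12652, or 98.2%, were found in 1 library only and 12 in 3 or more. The same share over all intervals of the series was not counted, so the low sharing is not shown to be particular to these genes. Merged over the 6 libraries they formed 236 regions in Ncam1, 164 in Ncam2 and 872 in Cadm2, of which 26, 6 and 18 held intervals of all 4 libraries of FLAG-PTBP1 or PTBP2. As that choice favours these 4 libraries over FLAG WT, the shares below only describe them. The 26 shared regions of Ncam1 held 80.5% of its intervals in FLAG loxp, 72.8% in FLAG Rosa-PTBP1, 90.5% in PTBP2 Rosa-PTBP1 and 75.2% in PTBP2 WT, with 9.09% in FLAG WT replicate 1. In Cadm2 the 18 shared regions held 39.2% in FLAG loxp, 29.7% in FLAG Rosa-PTBP1, 40.1% in PTBP2 Rosa-PTBP1 and 37.5% in PTBP2 WT, with 2.52% and 26.7% in FLAG WT replicates 1 and 2. In Ncam2 the 6 shared regions held 65.5% in FLAG loxp, 44.0% in FLAG Rosa-PTBP1, 50% in PTBP2 Rosa-PTBP1 and 64.6% in PTBP2 WT.

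How often sites of 1 library met a site of another, by 1 base or more on the same strand, differed by gene. Of PTBP2 Rosa-PTBP1 sites in Ncam1, 45 of 57 (78.9%, 66.1 to 88.6) overlapped a PTBP2 WT site, and 40 of 108 PTBP2 WT sites (37.0%) overlapped 1 in PTBP2 Rosa-PTBP1. On the rest of chromosome 9, sparse in PTBP2 Rosa-PTBP1, it was 6 of 149 (4.03%) and 6 of 1528 (0.393%). As Ncam1 was chosen because it kept sites there, this contrast is a description. In Ncam2 it was 8 of 22 PTBP2 Rosa-PTBP1 sites (36.4%, 17.2 to 59.3), with 8 of 26 PTBP2 WT sites (30.8%) the other way. In Cadm2 it was 41 of 158 PTBP2 Rosa-PTBP1 sites (25.9%, 19.3 to 33.5), with 40 of 183 PTBP2 WT sites (21.9%) the other way, against 386 of 1640 PTBP2 Rosa-PTBP1 sites (23.5%) on the rest of chromosome 16. Ncam1 sites of PTBP2 Rosa-PTBP1 were thus mostly places where PTBP2 WT also had a site, and over all sites the Cadm2 share was close to that of its chromosome. With stacked sites of both libraries Cadm2 was lower, at 16 of 31 PTBP2 Rosa-PTBP1 sites (51.6%, 33.1 to 69.8) against 68.3% on the rest of chromosome 16. The other way it was 14 of 94 PTBP2 WT sites (14.9%, 8.39 to 23.7) against 29.4% (25.9 to 33.2). Overlap rises with the number and width of sites in the list it is counted against, so shares toward deeper libraries run higher.

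Of the 3 genes, Ncam1 had the highest overlap between FLAG loxp and FLAG Rosa-PTBP1. There 68 of 96 FLAG loxp sites (70.8%) overlapped a FLAG Rosa-PTBP1 site, and 74 of 125 the other way (59.2%), where the rest of chromosome 9 had 52.3% and 38.6%. In Ncam2 23 of 37 FLAG loxp sites did (62.2%), and 26 of 71 the other way (36.6%). In Cadm2 134 of 221 did (60.6%), and 129 of 321 the other way (40.2%), so Ncam2 and Cadm2 lay near the rest of chromosome 16, at 57.4% and 38.4%. Across antibodies, 62 of 96 FLAG loxp sites in Ncam1 overlapped a PTBP2 WT site (64.6%), against 555 of 2170 on the rest of chromosome 9 (25.6%), whereas in Cadm2 it was 69 of 221 (31.2%), against 612 of 2018 on the rest of chromosome 16 (30.3%). The other way, 60 of 108 PTBP2 WT sites in Ncam1 did (55.6%), against 39.3% on the rest of chromosome 9. With stacked sites of both libraries Ncam1 had 59.1% of FLAG loxp sites against 27.9%, but the other way 36 of 68 (52.9%) against 60.9%. The Ncam1 contrast thus depends on the direction and the sites counted. As the loci were chosen for their many intervals, it is a description. FLAG Rosa-PTBP1 sites overlapped a FLAG WT site in 16 of 125 cases in Ncam1 (12.8%), 5 of 71 in Ncam2 (7.04%) and 46 of 321 in Cadm2 (14.3%), beside 9.28% and 8.60% on the rest of chromosomes 9 and 16. Of the 93 stacked Ncam1 sites of FLAG Rosa-PTBP1, 0 overlapped a stacked FLAG WT site, of which there was 1.

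How each gene's share of sites differed between libraries was then expressed as the log2 ratio of shares, over chromosomes filled in both, with a pseudocount of 0.5. FLAG Rosa-PTBP1 against FLAG WT measures signal over background. Ncam1 had 2.91 sites per 1000 in FLAG Rosa-PTBP1 against 1.25 in FLAG WT, a fold of 2.33 (1.78 to 3.07). Ncam2 had 1.65 against 0.943, a fold of 1.75 (1.25 to 2.46), and Cadm2 had 7.48 against 4.98, a fold of 1.50 (1.29 to 1.74). All 3 genes had the higher share in FLAG Rosa-PTBP1 against each FLAG WT library taken alone, with Ncam1 at 2.16-fold against replicate 1 and 6.62-fold against replicate 2, which held 4 Ncam1 sites. Stacked sites, of which FLAG WT held few, turned the log2 ratio to -0.22 in Ncam2 and -0.66 in Cadm2, with 95% intervals that hold 0. When intervals were counted in place of sites, Ncam1 was 3.32-fold higher against replicate 1 and Ncam2 and Cadm2 were 1.33-fold and 1.42-fold higher. By 100-kb windows on 1 strand with 20 or more sites, 5 of 15 windows of the loci were higher and 2 lower than the library-wide ratio by an exact 95% interval, against 36.7% higher and 8.11% lower of all 1369 windows. The share of the loci's windows called was near that of all windows. The median log2 ratio was 0.26 in the loci and 0.57 over all windows. Of the 5 higher windows, Ncam1 from 49.5 to 49.6 Mb had 98 sites in FLAG Rosa-PTBP1 against 37 in FLAG WT (log2 ratio 2.26), and Ncam2 from 81.2 to 81.3 Mb had 54 against 36 (1.45), both at the 5′ end of the gene. The other 3 were the windows of Cadm2 from 67.4 to 67.7 Mb, with 50, 127 and 27 sites in FLAG Rosa-PTBP1 against 52, 89 and 20 in FLAG WT. Both windows that were lower were in Cadm2, near its 3′ edge from 66.7 to 66.8 Mb and in its middle from 67.1 to 67.2 Mb, with 3 and 5 sites in FLAG Rosa-PTBP1 against 19 and 43 in FLAG WT.

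FLAG loxp against FLAG Rosa-PTBP1 compares FLAG-PTBP1 with floxed and with intact PTBP2 alleles. Ncam1 had 2.93 sites per 1000 in FLAG loxp against 2.91 in FLAG Rosa-PTBP1, a log2 ratio of 0.013 (-0.39 to 0.41). Ncam2 had 1.13 against 1.65 (-0.54, -1.16 to 0.05) and Cadm2 had 6.76 against 7.48 (-0.15, -0.40 to 0.11). None of the 3 intervals excluded equal shares, although with all chromosomes as denominator that of Ncam2 did (-0.63, -1.25 to -0.05). They allow a Ncam2 share in FLAG loxp between 0.447 and 1.03 times that in FLAG Rosa-PTBP1. Of 11 windows of the loci 1 was lower, Cadm2 from 67.5 to 67.6 Mb with 71 sites in FLAG loxp against 127 in FLAG Rosa-PTBP1, and 0 were higher, against 9.47% lower and 5.04% higher of all 834 windows. The median log2 ratio was -0.22 in the loci's windows and -0.062 over all windows.

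PTBP2 Rosa-PTBP1 against PTBP2 WT compares PTBP2 with and without the transgene and Emx1-cre. Ncam1 had 2.72 sites per 1000 in PTBP2 Rosa-PTBP1 against 6.17 in PTBP2 WT, a log2 ratio of -1.17 (-1.67 to -0.70), over chromosomes that left out its own sparse one from the denominator. With sites of all chromosomes as the denominator the ratio was -0.64 (-1.13 to -0.17), in run XB028 alone it was -0.37 (-0.88 to 0.11), and with stacked sites it was 0.094 (-0.58 to 0.71). Cadm2 had 7.55 against 10.4 (-0.47, -0.79 to -0.15), but 0.068 (-0.25 to 0.38) with all chromosomes as denominator, so its direction depends on that choice. Ncam2, with 22 sites against 26, had -0.49 (-1.39 to 0.38). Of 9 windows of the loci 2 were lower and 0 higher, against 43.3% lower, 0.361% higher and 43.7% called in either direction of all 277 windows. The loci's windows had a median log2 ratio of -0.74, and all 277 windows had -0.80. These medians were close to each other, and both lay below the library-wide ratio. By calls the loci had the smaller share of lower windows, 2 of 9 against 43.3%. Of these 2 windows 1 was in Ncam1, whose chromosome was sparse in PTBP2 Rosa-PTBP1.

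FLAG Rosa-PTBP1 against PTBP2 Rosa-PTBP1 compares antibodies in cortex of 1 genotype. Ncam2 had 2.68 sites per 1000 in FLAG Rosa-PTBP1 against 1.15 in PTBP2 Rosa-PTBP1, a log2 ratio of 1.20 (0.51 to 1.98). Cadm2 had 12.1 against 8.26 (0.55, 0.27 to 0.84) and Ncam1 4.71 against 2.98 (0.65, 0.20 to 1.14), with Ncam1 again on the sparse chromosome. With all chromosomes as denominator these were 0.093 (-0.18 to 0.38) in Cadm2 and 0.20 (-0.26 to 0.68) in Ncam1, and neither interval excluded equal shares. Counted by intervals Ncam1 turned to -0.021, and by stacked sites to -1.02 (-1.60 to -0.37). Of 8 windows of the loci 2 were higher and 0 lower, against 54.6% higher, 1.13% lower and 55.8% called in either direction of all 443 windows. The median log2 ratio was 0.59 in the loci's windows and 1.18 over all windows. Cadm2 at 0.55 and Ncam1 at 0.65 thus lay below the median window, and Ncam2 at 1.20 lay close to it.

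FLAG loxp against PTBP2 WT sets FLAG-PTBP1 in cortex with floxed PTBP2 alleles against PTBP2 in WT cortex. Ncam1 had 2.75 sites per 1000 in FLAG loxp against 3.93 in PTBP2 WT, a log2 ratio of -0.52 (-0.93 to -0.11). Ncam2 had 1.06 against 0.947 (0.15, -0.60 to 0.95) and Cadm2 6.33 against 6.66 (-0.075, -0.36 to 0.22). Of 9 windows of the loci 1 was higher and 2 were lower, against 20.2% higher and 5.36% lower of all 634 windows. The median log2 ratio was -0.35 in the loci's windows and 0.32 over all windows. The Ncam1 window from 49.5 to 49.6 Mb was lower, with 80 sites in FLAG loxp against 99 in PTBP2 WT. In Cadm2 the window from 67.4 to 67.5 Mb, which holds the leading region, was higher, with 54 against 22, and the one from 67 to 67.1 Mb was lower, with 12 against 21. Whether the genes differed from each other within a comparison was not tested.

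**Figure D5:**
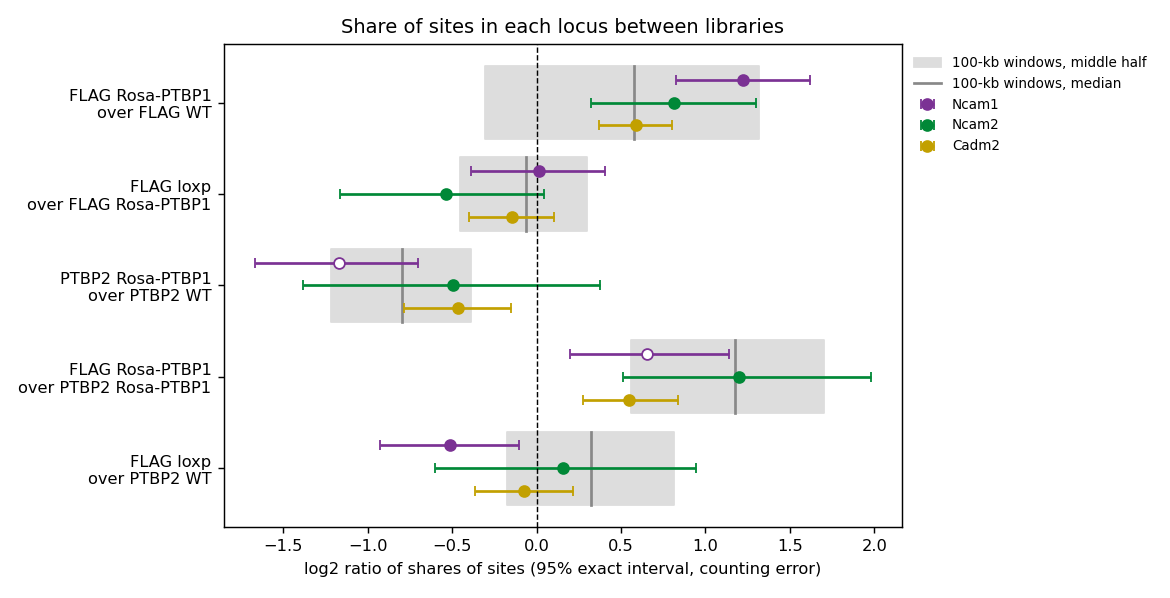
Log2 ratio of the share of sites in each locus (points) with exact 95% intervals for counting error (bars), for 5 comparisons of libraries. Open points mark loci on a chromosome that is sparse in 1 of the libraries, grey bands hold the central 50% of 100-kb windows, and grey lines are their medians. Most points lie in or near the grey band of their row, and Ncam1 lies below it in FLAG loxp over PTBP2 WT, at -0.52.

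Windows elsewhere had profiles over the 6 libraries close to those of the genes. Likeness was the root mean square difference of the log2 shares of intervals over 6 libraries, among 1386 windows of 100 kb with 50 or more intervals on the 12 filled chromosomes. The nearest to Ncam1 was chromosome 16 plus strand from 6.6 to 6.7 Mb, at 0.49, followed by chromosome 14 minus strand from 40.1 to 40.2 Mb at 0.53. For Ncam2 the nearest were on the minus strand of chromosome 17, from 90.5 to 90.6 Mb at 0.53 and from 91.2 to 91.3 Mb at 0.54. Cadm2 had no window as close: the nearest was chromosome 16 plus strand from 6.8 to 6.9 Mb, at 1.01. The shares were not scaled for length, and the Cadm2 locus is 960 kb long against 100 kb for a window. In FLAG WT replicate 1 that window held 114 intervals against 476 in Cadm2. The larger distance is thus not shown to be a trait of Cadm2. The libraries share depth and background among all windows, and genes at these windows were not named for want of an mm9 annotation.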

How the data were processed

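Per the submitters' processing notes, reads were aligned with Bowtie to mm9; the sources used here give neither the Bowtie version nor the caller of significant clusters. The deposited lists give read intervals by chromosome, start, end and strand with a read name and no score, so a locus with no listed interval may still have held reads. Per the labels' protocols, crosslinking was at 400 mJ/cm2 and complexes between 80 and 110 kDa were taken. Repeated lines were collapsed to distinct intervals, and overlapping or touching intervals of 1 strand were merged into sites (Python 3.11.15, pandas 2.3.3, NumPy 2.4.6, SciPy 1.17.1, Matplotlib 3.10.9). Depth was 26665 to 351602 distinct intervals. No test between conditions was made, since 4 of the 5 groups hold 1 library. Ratios of site shares carry exact conditional binomial 95% intervals and shares Clopper-Pearson intervals. The window calls were run on simulated independent counts only. That simulation holds neither clustering of sites nor spread between replicates, so it does not show the error rate of the calls in these data.

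Named regions were, per locus, the 4 with the highest mean share over the 4 libraries of FLAG-PTBP1 or PTBP2, the richest in each FLAG WT library, the 2 highest and 2 lowest per comparison among regions with 30 or more intervals in both libraries together, and the 3 nearest windows; the text gives a selection. Members, regions and lists were chosen with earlier results of these data known, and the joining of regions into clusters and the split of regions by run were added after seeing the data. Alternatives were intervals in place of sites, merging within 50 bases, all chromosomes as denominator, stacked sites, a pseudocount of 1, shared runs, windows of 50 kb or 10 sites, and each FLAG WT library left out. The genome and annotation at hand were GRCm38, so no sequence, exon or list of related genes is reported here.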

Additional observations from a re-analysis of the deposited data

Results flagged for a closer look

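In all 3 genes the share of sites in Rosa-PTBP1 cortex moved in opposite directions with the 2 antibodies. With PTBP2 antibody the log2 ratio of PTBP2 Rosa-PTBP1 over PTBP2 WT was -1.17 in Ncam1, -0.49 in Ncam2 and -0.47 in Cadm2. With FLAG antibody FLAG Rosa-PTBP1 was above each FLAG WT library, by 1.11 and 2.56 against replicates 1 and 2 in Ncam1, 0.72 and 1.46 in Ncam2, and 0.49 and 1.54 in Cadm2. These directions hold for site shares over chromosomes filled in both libraries. For PTBP2 the ratio turned with all chromosomes as denominator in Ncam2 (0.043) and Cadm2 (0.068) and with stacked sites in Ncam1 (0.094) and Ncam2 (0.39), and the 95% interval of Ncam2 held 0. For FLAG it turned with stacked sites in Ncam2 (-0.22) and Cadm2 (-0.66). The difference between the antibodies was not tested, and PTBP2 was 1 library against 1. The medians over all 100-kb windows had the same signs, -0.80 for PTBP2 and 0.57 for FLAG, so the pattern is not shown to be particular to these genes. FLAG WT holds no FLAG-tagged protein whereas PTBP2 WT holds PTBP2, so the comparisons do not ask the same question of each antibody.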

How the results depend on the processing

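Of 90 values of the log2 ratio of site shares under an alternative, 80 kept their sign and 10 changed it. Merging intervals within 50 bases or a pseudocount of 1 changed no sign. Among the changes of sign, all chromosomes as denominator gave 0.043 for Ncam2 in PTBP2 Rosa-PTBP1 over PTBP2 WT and -0.078 for Ncam1 in FLAG loxp over FLAG Rosa-PTBP1, and intervals gave -0.0051 for Ncam2 in FLAG loxp over PTBP2 WT. Counting distinct intervals gave 2.00 for Ncam1 in FLAG Rosa-PTBP1 over FLAG WT, -0.13 for Cadm2 in PTBP2 Rosa-PTBP1 over PTBP2 WT, and -0.021 for Ncam1 in FLAG Rosa-PTBP1 over PTBP2 Rosa-PTBP1. Stacked sites, few in FLAG WT and PTBP2 Rosa-PTBP1, gave 1.62, -0.22 and -0.66 for Ncam1, Ncam2 and Cadm2 in FLAG Rosa-PTBP1 over FLAG WT. They gave 0.094 and 0.39 for Ncam1 and Ncam2 in PTBP2 Rosa-PTBP1 over PTBP2 WT. In FLAG Rosa-PTBP1 over PTBP2 Rosa-PTBP1 they gave -1.02, 0.16 and 0.068 for the 3 genes, and -0.42 for Cadm2 in FLAG loxp over PTBP2 WT. With all chromosomes as denominator PTBP2 Rosa-PTBP1 over PTBP2 WT was -0.64 for Ncam1 and 0.068 for Cadm2, and FLAG Rosa-PTBP1 over PTBP2 Rosa-PTBP1 was 0.093 for Cadm2. The run named WA047, which drops FLAG WT replicate 1, gave 2.56, 1.46 and 1.53 for Ncam1, Ncam2 and Cadm2 in FLAG Rosa-PTBP1 over FLAG WT, and run XB028 alone gave -0.37 for Ncam1 in PTBP2 Rosa-PTBP1 over PTBP2 WT. Leaving out either FLAG WT library gave 1.11 to 2.56 for Ncam1, 0.72 to 1.46 for Ncam2 and 0.49 to 1.54 for Cadm2. The libraries compared between antibodies share no run, so that alternative was not run there.

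Windows called rose with intervals in place of sites, to 1840 from FLAG Rosa-PTBP1 over FLAG WT (613 by sites), 1308 from FLAG loxp over FLAG Rosa-PTBP1 (121), 501 from PTBP2 Rosa-PTBP1 over PTBP2 WT (121), 836 from FLAG Rosa-PTBP1 over PTBP2 Rosa-PTBP1 (247) and 1205 from FLAG loxp over PTBP2 WT (162). With 10 sites as the minimum they were 955 and 182 for FLAG Rosa-PTBP1 over FLAG WT and FLAG loxp over FLAG Rosa-PTBP1, and 371 to 563 for FLAG Rosa-PTBP1 over FLAG WT without 1 FLAG WT library.

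Overlap over the 3 loci within 50 bases was 19.3% of FLAG Rosa-PTBP1 sites in FLAG WT, 71.8% of FLAG loxp in FLAG Rosa-PTBP1 and 51.5% the other way, 34.4% of PTBP2 WT in PTBP2 Rosa-PTBP1, 27.5% of FLAG Rosa-PTBP1 in PTBP2 Rosa-PTBP1, and 49.2% of FLAG loxp in PTBP2 WT and 52.1% the other way. Among stacked sites it was 1.50% of FLAG Rosa-PTBP1 in FLAG WT and 27.8% the other way, 66.2% of PTBP2 Rosa-PTBP1 in PTBP2 WT, and 16.2% of FLAG Rosa-PTBP1 in PTBP2 Rosa-PTBP1 and 73.5% the other way. The cause was not tested. No paired analysis was possible because the groups compared share fewer than 2 replicate numbers. Depth limits Ncam2 in PTBP2 Rosa-PTBP1, with 22 sites, and both Ncam1 and Ncam2 in FLAG WT replicate 2, with 4 and 5 sites.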
